A study of Mus musculus with 8 samples.

Results

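The 10 genes described here encode complement components, an inhibitor and receptors. They were chosen by name out of 25239 deposited gene symbols: *C1qa*, *C1qb*, *C1qc*, *C3*, *C4b*, *Serping1*, *C3ar1*, *C5ar1*, *Itgam* and *Itgb2*. All 10 were among the 18123 genes tested, those averaging 0.1 CPM or more. The corpus callosum, a white matter tract between the cerebral hemispheres, was sampled for RNA sequencing from male mice labelled C57BL/6 (C57BL/6J in the methods) after bilateral common carotid artery stenosis (BCAS), in which a microcoil on each carotid artery lowers cerebral blood flow, or after a sham operation without coils. Each genotype label, wild type (WT) or TRPA1 knockout (TRPA1-KO), had 1 sham library at day 14 and 1 BCAS library at each of days 7, 10 and 14. TRPA1 is a calcium-permeable cation channel that responds to irritants and oxidative stress. The knockout line had been backcrossed for at least 10 generations, the WT mice were purchased, and the study used mice of 8 to 12 weeks. The methods describe a data point as material from 1 mouse, without a separate statement for the sequencing libraries.

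The reads of *Trpa1* itself went against the labels. The 4 libraries labelled WT held 1 read in sham and 0 reads at days 7, 10 and 14 after BCAS, where 0 reads allow a level of up to 0.267, 0.378 and 0.329 CPM. The 4 libraries labelled TRPA1-KO held 10 reads in sham and 11, 3 and 7 reads at days 7, 10 and 14. Libraries are therefore named by their label throughout, and every direction between the labels rests on labels that this gene does not bear out. The sources used here do not give the deleted part of the gene, so reads from a remaining part of its transcript cannot be told apart from reads of an intact one.

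Levels are given in CPM, the reads of a gene as the authors scaled them to an effective library size of 1000000 reads. The libraries held 7896071 to 12952093 reads, so that 3 reads, taken as the floor of detection, corresponded to 0.235 to 0.378 CPM. Oligodendrocyte transcripts were abundant, with *Mbp* at 5129 to 7246 CPM, which by itself does not show the region dissected. All 6 oligodendrocyte markers examined were lower in every BCAS library labelled WT than in both sham libraries. With the label TRPA1-KO this held for 4 of the 6. Groups did not overlap in either direction for 19.9% and 18.6% of all genes in these comparisons. The tissue also held neuronal transcripts, with 6 neuronal marker genes summing to 5286 to 6964 CPM. Of these 6, only *Ppp1r1b* was lower in every BCAS library (233 to 380 CPM) than in both sham libraries (412 and 542 CPM). Whether the regions held in the dissected tissue differed between libraries was not tested. Hemoglobin RNA, a sign of blood in the tissue, varied from 0.557 to 106 CPM between libraries. In bulk tissue, fewer cells of a type and less RNA per cell cannot be told apart.

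Complement is a cascade of proteins that tags and clears debris, microbes and, in the brain, synapses. C1q, built from the chains encoded by *C1qa*, *C1qb* and *C1qc*, starts the classical pathway, which cleaves C4 and C2 and then C3. Fragments of C3 and C5 signal through C3aR and C5aR1, and cells bearing complement receptor 3 (CR3, the heterodimer of the *Itgam* and *Itgb2* products CD11b and CD18) bind the C3 fragments that coat a target. In the brain, microglia are the main source of C1q, whereas C3 and C4 are also made by reactive astrocytes.

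The 3 C1q genes lie side by side within 18675 bases of chromosome 4. On GRCm38 and GENCODE M21 they occupy 136895917 to 136898803 (*C1qa*), 136889804 to 136893065 (*C1qc*) and 136880129 to 136886187 (*C1qb*), all on the minus strand. Since genes of this cluster and the receptor subunit *Itgam* had similar profiles over the libraries, the sequence just before their transcription start is shown. RefSeq (GRCm38.p6) gave a start site for 6 of the 10 genes (*C1qb*, *C1qc*, *C3*, *C3ar1*, *C5ar1* and *Itgam*), and the 250 bases before it were searched on both strands for the core of the site of PU.1, a transcription factor of the myeloid lineage (GAGGAAG), a STAT site (TTCNNNGAA) and an interferon response element in part (GAAANNGAA). The stretches below are 5′ to 3′ in the direction of the gene, with matches in capitals. For *C1qc*, the 151 bases nearest the RefSeq start are left out because GENCODE places them inside the gene.

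C1qb, chr4:136886201-136886450, minus strand: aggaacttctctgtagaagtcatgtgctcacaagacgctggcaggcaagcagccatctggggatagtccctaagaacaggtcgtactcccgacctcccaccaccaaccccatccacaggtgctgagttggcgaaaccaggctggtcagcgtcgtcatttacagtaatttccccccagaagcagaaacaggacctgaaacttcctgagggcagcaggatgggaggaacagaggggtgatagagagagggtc

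C1qc, chr4:136893066-136893164, minus strand: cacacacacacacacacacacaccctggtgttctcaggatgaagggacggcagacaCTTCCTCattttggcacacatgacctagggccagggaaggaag

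Itgam, chr7:128062390-128062639, plus strand: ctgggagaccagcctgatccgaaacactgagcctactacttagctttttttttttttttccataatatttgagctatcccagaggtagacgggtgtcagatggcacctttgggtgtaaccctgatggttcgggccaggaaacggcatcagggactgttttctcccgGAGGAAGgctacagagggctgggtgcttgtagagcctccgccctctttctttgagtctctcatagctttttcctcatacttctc

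The capitals mark the PU.1 core, which began 194 bases before the start of *C1qc* (on the opposite strand, so it reads CTTCCTC) and 84 bases before the start of *Itgam*. It was present in these 2 of the 6 windows, against 10.6% of the 32851 windows in the RefSeq table. The interferon response letters were found in 1 window, that of *C5ar1*, 66 bases before the start, against 7.13% of all windows. The 202 bases nearest that start lie inside *C5ar1* in GENCODE, and the match falls among them. The STAT site was found in 0 of the 6 windows, against 7.02% of all. These matches describe letters in the window and carry no measurement of binding, and no match within the *C1qb* window says only that these letters were absent there.

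**Figure D1:**
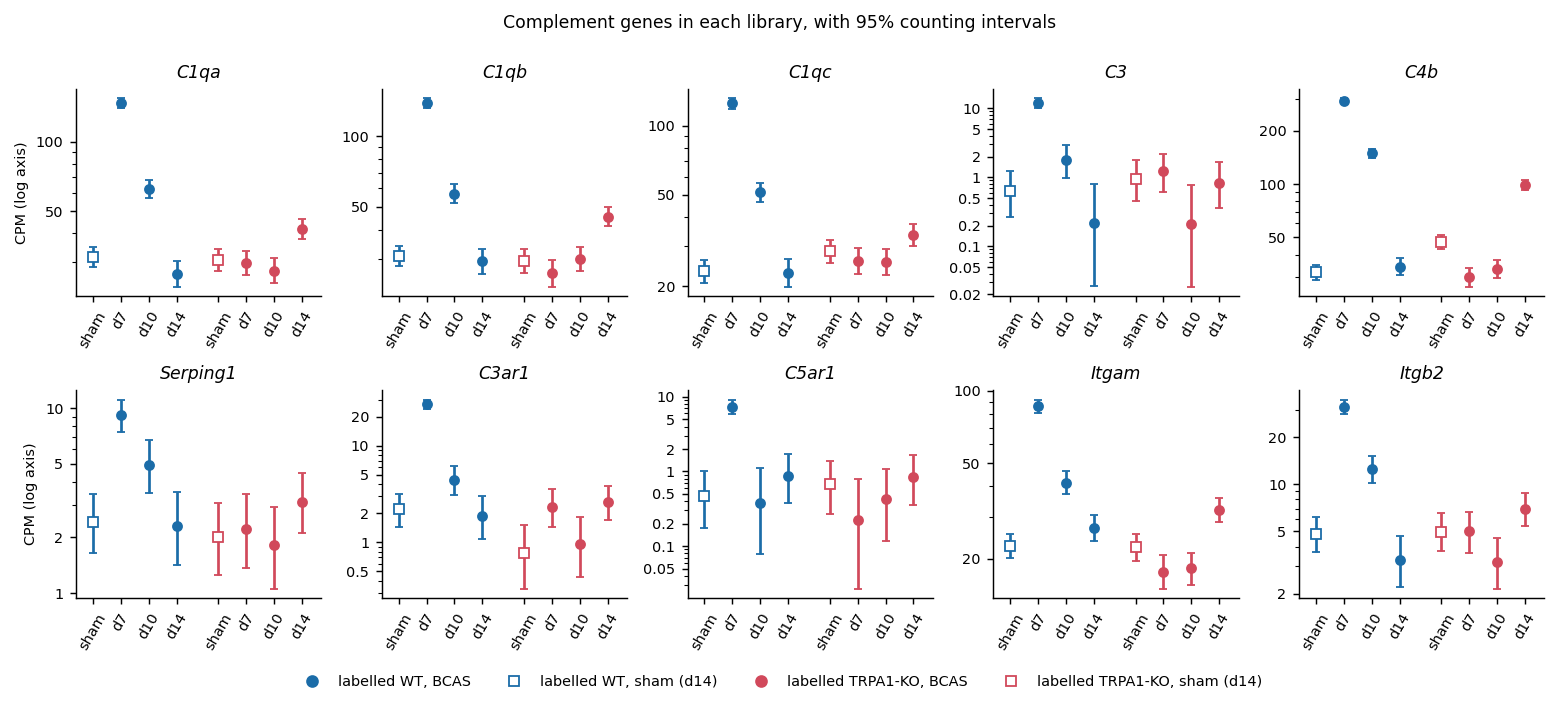
CPM of the 10 complement genes in each of the 8 libraries (logarithmic vertical axis), with open squares for sham and filled circles for BCAS. Blue marks the label WT, red the label TRPA1-KO, and bars are 95% Clopper-Pearson intervals, which cover counting error only. In each panel the highest point is the BCAS library labelled WT at day 7, and in 9 of 10 panels the BCAS libraries labelled TRPA1-KO are highest at day 14. For *Serping1*, *C3ar1*, *C5ar1* and *Itgb2* the bars of that label at days 7 and 14 overlap.

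Per kilobase of exon the C1q chains were the most abundant of the 10 transcripts in sham, and they were highest at day 7 after BCAS with the label WT. *C1qa* was at 31.6 CPM in sham labelled WT, at 148, 62.3 and 26.7 CPM at days 7, 10 and 14 after BCAS with that label, at 30.6 CPM in sham labelled TRPA1-KO, and at 29.8, 27.5 and 41.9 CPM at days 7, 10 and 14 after BCAS with that label. In the same order, *C1qb* was at 30.8 CPM in sham, 139, 56.8 and 29.3 CPM after BCAS with the label WT, and at 29.4 CPM in sham and 26.0, 30.0 and 45.5 CPM after BCAS with the label TRPA1-KO. *C1qc* was at 23.3 CPM in sham and 125, 51.3 and 22.9 CPM after BCAS with the label WT, and at 28.5 CPM in sham and 25.8, 25.6 and 33.6 CPM after BCAS labelled TRPA1-KO. All 3 chains were thus high at day 7 and intermediate at day 10 in the libraries labelled WT and just below both sham values at day 14, whereas in the libraries labelled TRPA1-KO the highest value came at day 14.

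The chains kept nearly constant proportions. Per kilobase of exon, *C1qa* made up 39.3% to 43.5% of the summed C1q level in a library, *C1qb* 36.3% to 42.0% and *C1qc* 17.1% to 20.7%, while that sum, in CPM, ranged from 78.9 to 411. At day 7 with the label WT the 3 genes stood at 4.75-fold (*C1qa*), 4.60-fold (*C1qb*) and 4.83-fold (*C1qc*) of the mean of both sham libraries.

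*C4b*, which encodes the C4 protein cleaved downstream of C1, lies on chromosome 17 (34728380 to 34743882, minus strand). It was at 31.8 CPM in sham and at 295, 149 and 34.2 CPM at days 7, 10 and 14 after BCAS with the label WT, and at 47.4 CPM in sham and 29.8, 33.3 and 99.3 CPM after BCAS with the label TRPA1-KO. Of the 10 genes it had the highest fold over sham at day 10 with the label WT and at day 14 with the label TRPA1-KO, where it stood at 2.51-fold of the sham mean against 1.39-fold for the summed C1q genes. The ratio of *C4b* to summed C1q CPM was 0.371 and 0.535 in the sham libraries, 0.716, 0.876 and 0.434 at days 7, 10 and 14 with the label WT, and 0.365, 0.401 and 0.820 with the label TRPA1-KO. *C4a*, a close paralog on the same chromosome, could share reads with *C4b*, so the split between them is uncertain. *C4a* was lower throughout, at 5.24 to 19.4 CPM.

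*C3*, the central component (chromosome 17, 57203970 to 57228136, minus strand), was scarce outside 1 library. It was at 0.626 CPM (8 reads) in sham, 11.9 CPM (134 reads) at day 7, 1.76 CPM (14 reads) at day 10 and 0.219 CPM (2 reads) at day 14 after BCAS with the label WT. With the label TRPA1-KO it was at 0.959 CPM (10 reads) in sham and at 1.22, 0.214 and 0.832 CPM (11, 2 and 8 reads) at days 7, 10 and 14. The 2 reads at day 14 with the label WT and at day 10 with the label TRPA1-KO lie below the floor of 3 reads. Per kilobase of exon, the level of *C4b* was 22.0 to 141 times that of *C3*.

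*Serping1*, which encodes the C1 esterase inhibitor, an inactivator of the C1r and C1s proteases (chromosome 2, 84765387 to 84775444, minus strand), varied over a narrower range. It was at 2.43 CPM in sham and 9.16, 4.91 and 2.30 CPM at days 7, 10 and 14 after BCAS with the label WT, and at 2.01 CPM in sham and 2.23, 1.82 and 3.12 CPM after BCAS labelled TRPA1-KO. The day 7 value with the label WT was 4.13-fold of the sham mean, close to the C1q chains, and the other 7 libraries lay between 1.82 and 4.91 CPM.

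The receptors of the released fragments had, with *C3* (15.0-fold), the highest folds over sham at day 7. *C3ar1*, which encodes the C3a receptor (chromosome 6, 122847138 to 122856161, minus strand), was at 2.19 CPM in sham and 26.9, 4.41 and 1.87 CPM after BCAS with the label WT, and at 0.767 CPM in sham and 2.34, 0.961 and 2.60 CPM with the label TRPA1-KO. Its sham libraries differed 2.86-fold (28 and 8 reads), the widest difference between the sham libraries among the 10 genes, and its 18.2-fold at day 7 rests on the mean of these values. *C5ar1*, which encodes a C5a receptor (chromosome 7, 16246743 to 16259540, minus strand), was at 0.469 CPM in sham and 7.38, 0.378 and 0.878 CPM after BCAS with the label WT, and at 0.671 CPM in sham and 0.223, 0.427 and 0.832 CPM with the label TRPA1-KO. *C5ar1* had 83 reads in the day 7 library labelled WT and 2 to 8 reads in each of the other 7, so it was high in a single library and its order among the others was not resolvable at this depth.

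The subunits of CR3 were higher in the same libraries. *Itgam* (chromosome 7, 128062640 to 128118491, plus strand) was at 22.7 CPM in sham and 86.2, 41.5 and 27.0 CPM at days 7, 10 and 14 after BCAS with the label WT, and at 22.3 CPM in sham and 17.7, 18.3 and 31.9 CPM with the label TRPA1-KO. It was the 1 gene of the 10 whose BCAS libraries labelled WT all lay above both sham libraries, and an overlapping gene model on the same strand, *Gm49368*, leaves the assignment of some of its reads uncertain. *Itgb2*, whose product pairs with other integrin chains as well (chromosome 10, 77530252 to 77565708, plus strand), was at 4.85 CPM in sham and 31.2, 12.5 and 3.29 CPM with the label WT, and at 4.99 CPM in sham and 5.01, 3.20 and 6.97 CPM with the label TRPA1-KO. Per kilobase of exon, *Itgam* was 1.68 times as abundant as *Itgb2* in the day 7 library labelled WT and 2.02 to 4.98 times in the other 7.

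The levels per kilobase of exon, averaged over both sham libraries, ran in the order *C1qa* (29.9 CPM per kilobase), *C1qb* (27.7), *C1qc* (13.4), *C4b* (6.96), *Itgam* (4.48), *Itgb2* (1.61), *Serping1* (0.955), *C3ar1* (0.343), *C5ar1* (0.222) and *C3* (0.154). With 2 sham libraries no test of neighbours in this order was made. The ratio of the sham libraries, label WT to label TRPA1-KO, was 1.03 for *C1qa*, 1.05 for *C1qb*, 0.672 for *C4b*, 0.653 for *C3* and 0.699 for *C5ar1*. Per kilobase, *C1qa* (30.4 and 29.4 CPM) lay slightly above *C1qb* (28.3 and 27.1 CPM) in both sham libraries. The sham values of *C3ar1*, *C5ar1* and *C3* overlapped, so these genes were not separated beyond their spread.

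All 10 genes had their highest level of the 8 libraries at day 7 after BCAS with the label WT, where 21.9% of all genes tested had theirs. Their median fold over the sham mean was 5.59 at day 7, 2.11 at day 10 and 0.929 at day 14 with the label WT, and 0.978, 0.814 and 1.42 with the label TRPA1-KO. On the log2(CPM + 1) scale the median difference from sham was 2.33 at day 7 with the label WT and 0.42 at day 14 with the label TRPA1-KO, while the median over all genes lay between -0.01 and 0.00 in each BCAS library. With the label WT, 9 of 10 genes were ordered day 7 above day 10 above day 14, an order shown by 22.2% of all genes. *C5ar1* was the exception. With the label TRPA1-KO, 9 of 10 were highest at day 14, as were 35.4% of all genes, and *C3* was the exception. Among the 9, the counting intervals of days 7 and 14 overlapped for *Serping1*, *C3ar1*, *C5ar1* (2 and 8 reads) and *Itgb2*, so their order was not resolved. At day 14 with the label TRPA1-KO, 10 of 10 lay above the sham mean and 9 lay above both sham libraries, against 33.0% of all genes above both. Each of these counts sets single libraries side by side, and sham libraries existed for day 14 alone.

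**Figure D2:**
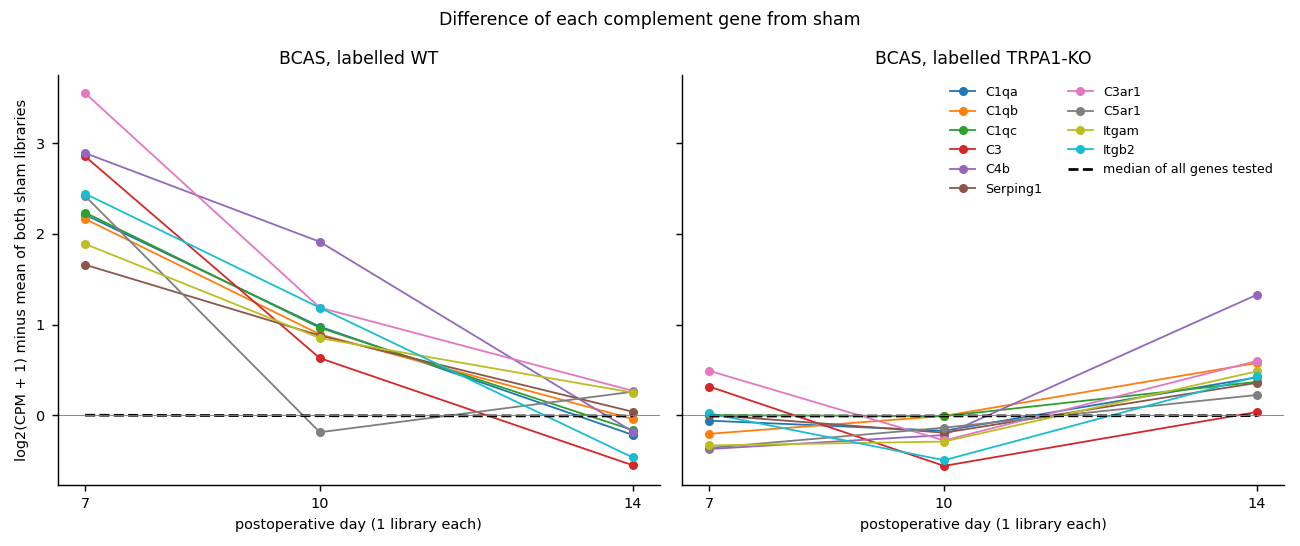
Difference of each complement gene from the mean of both sham libraries, on the log2(CPM + 1) scale, against the postoperative day, with 1 library at each point. With the label WT (left) the 10 lines lie between 1.66 and 3.55 at day 7, and with the label TRPA1-KO (right) they lie between 0.04 and 1.33 at day 14, while the dashed median of all genes tested stays near 0.

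Within a day, the labels differed in opposite directions early and late. At day 7, 10 of 10 genes were higher with the label WT, by 4.11-fold (*Serping1*) to 33.2-fold (*C5ar1*, 83 against 2 reads, which lies below the floor), and the counting intervals of all 10 were apart, as were those of 12% of all genes in that direction. At day 10, 9 genes were higher with the label WT with intervals apart, against 6.01% of all genes, and *C5ar1* had 3 and 4 reads. At day 14, 9 genes were higher with the label TRPA1-KO. The intervals of 5 of them were apart, against 5.16% of all genes in that direction, at 1.57-fold for *C1qa*, 1.55-fold for *C1qb*, 1.47-fold for *C1qc*, 2.90-fold for *C4b* and 2.12-fold for *Itgb2*. The median log2 difference, label WT minus label TRPA1-KO, was 2.40, 1.14 and -0.56 at the 3 days, against 0.01, 0.00 and 0.00 over all genes. With 1 library per label and day, intervals cover counting error only and no test between animals could be made within a day.

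The study compared BCAS-operated mice of both genotypes over the 3 days together, and in that comparison the complement genes were higher with the label WT without passing a correction. *C1qa* was at 78.9 ± 62.2 CPM (SD, n = 3) with the label WT and 33.1 ± 7.73 CPM (n = 3) with the label TRPA1-KO, and *C4b* was at 159 ± 131 and 54.1 ± 39.1 CPM. All 10 log2 fold changes were above 0, from 0.80 (*Serping1*) to 1.40 (*C3ar1*), with a median of 0.99 against 0.00 over all genes. In limma's test on log2(CPM + 1), 1 of the 10, *Itgam*, had an unadjusted p under 0.05, as did 4.2% of all genes tested. Its log2 fold change was 1.04 with an SE of 0.36 and a limma adjusted p of 0.98. None of the 10 had an adjusted p under 0.05, against 0.0166% of all genes, and 0 of the 10 had groups that did not overlap, against 9.21% of all genes. For *Itgam*, the two-sided exact permutation test gave p = 0.2, where 3 against 3 libraries allow no p below 0.1. Fitted to the recovered reads, edgeR (quasi-likelihood) gave 10 of 10 an unadjusted p under 0.05, against 5.24% of all genes, and DESeq2 4 of 10, against 3.29%, and neither gave any of them an adjusted p under 0.05.

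The result moved with single libraries, whose day, mouse and preparation cannot be told apart. Without the day 14 library labelled WT the median log2 fold change was 1.505 and 9 genes had an unadjusted limma p under 0.05, against 10.2% of all genes (1846 in place of 761). Without the day 7 library of that label it was 0.35 and 1 gene did, against 3.4% of all. *Itgam* no longer had an unadjusted limma p under 0.05 without the day 7 or the day 10 library labelled TRPA1-KO, with log2 fold changes of 0.90 and 0.92. With each label's own sham library subtracted, the median difference was 1.06, from 0.55 (*C3ar1*) to 1.85 (*C4b*), and 0 of 10 genes had an unadjusted limma p under 0.05.

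Against the sham libraries as 1 group, all 10 genes were higher after BCAS with the label WT, by a median log2 fold change of 1.002 against 0.00 over all genes. *Serping1* was at 5.46 ± 3.46 CPM (SD, n = 3) against 2.22 ± 0.291 CPM (n = 2), a log2 fold change of 0.86 with an SE of 0.38. *C3ar1* was at 11.04 ± 13.8 CPM against 1.48 ± 1.01 CPM, a log2 fold change of 1.67 with an SE of 0.72. *Itgam* was at 51.5 ± 30.9 CPM against 22.5 ± 0.244 CPM, a log2 fold change of 0.998 with an SE of 0.38. These 3 genes had an unadjusted p under 0.05 in limma, as did 5.45% of all genes, and their limma adjusted p were 0.91, 0.91 and 0.89. Of the 10 genes, 0 had an adjusted p under 0.05, against 0.0% of all genes, and 1 of them, *Itgam*, had groups that did not overlap, against 19.9% of all genes. The exact permutation p of *Itgam* was 0.2, the smallest that 3 against 2 libraries allow. The quasi-likelihood test of edgeR gave 10 of 10 an unadjusted p under 0.05, against 6.78% of all genes, and DESeq2 7 of 10, against 4.54%, and neither gave any an adjusted p under 0.05. Without the day 7 library labelled WT the median was 0.41 and 0 genes had an unadjusted limma p under 0.05, against 5.29% of all genes. Without the day 14 library of that label it was 1.60 and 9 did, against 11.1% of all (2013 in place of 988), and with 1 or the other sham library left out 0 did.

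After BCAS with the label TRPA1-KO, 6 of the 10 genes were above and 4 below sham over the 3 days, with a median log2 fold change of 0.06 against 0.00 over all genes. *C1qa* was at 33.1 ± 7.73 CPM (SD, n = 3) against 31.1 ± 0.719 CPM (n = 2), and *C4b* was at 54.1 ± 39.1 against 39.6 ± 10.98 CPM. The log2 fold changes ran from -0.09 (*C5ar1*) to 0.27 (*C3ar1*, SE 0.72, limma adjusted p = 1.0). By limma, 0 of 10 genes had an unadjusted p under 0.05, against 2.74% of all genes, and 0 had an adjusted p under 0.05, against 0.00552%. Groups did not overlap for 0 of the 10, against 18.6% of all genes, and edgeR and DESeq2 also gave 0 with an unadjusted p under 0.05, against 2.85% and 1.4% of all genes. This comparison and the previous one share their sham libraries.

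**Figure D3:**
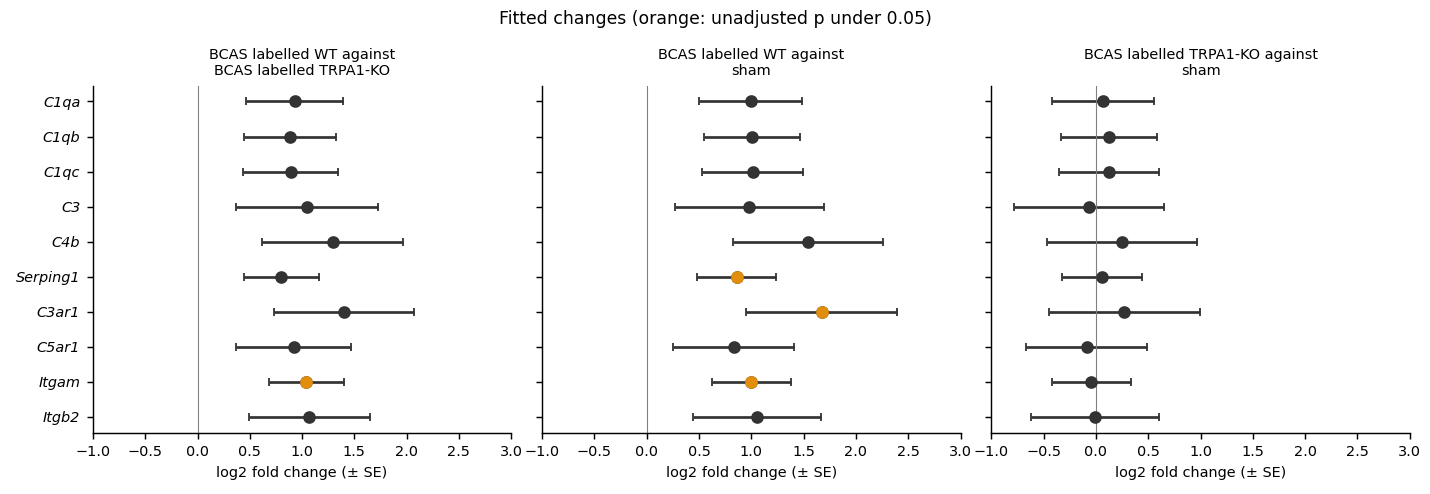
Log2 fold changes (± SE, limma) of the 10 complement genes in the 3 comparisons. In the left and middle panels all 10 points lie right of 0, and in the right panel they lie between -0.09 and 0.27. Orange points have an unadjusted p under 0.05 (*Itgam* at left, *Serping1*, *C3ar1* and *Itgam* in the middle), and none passed adjustment over the 18123 genes.

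Of 55 further complement genes, 43 were tested. Between the BCAS groups, 31 were higher and 12 lower with the label WT, with a median log2 fold change of 0.15, and 1 in each direction had an unadjusted limma p under 0.05, against 4.2% of all genes in either direction. The gene that was higher was *Cr1l*, which encodes the rodent regulator Crry, at 18.3 ± 1.65 CPM (SD, n = 3) against 14.4 ± 1.51 CPM (log2 fold change 0.32, SE 0.13, limma adjusted p = 0.98). The lower one, *C1s2*, had 2 to 9 reads in a library and lies outside the rule for named genes, and it is named here after its values were seen. After BCAS with the label WT against sham, the median of the 43 was 0.14, with *C4a* higher at 13.7 ± 5.70 against 5.98 ± 1.04 CPM (log2 fold change 0.9995, SE 0.32, limma adjusted p = 0.87) and *Csmd3*, a large membrane protein with complement control domains, lower at 21.9 ± 3.70 against 28.3 ± 1.87 CPM (log2 fold change -0.37, SE 0.14, limma adjusted p = 0.89). After BCAS with the label TRPA1-KO against sham, the median of the 43 was -0.04. *Cd55*, which encodes decay-accelerating factor, was lower there at 2.93 ± 0.279 against 5.01 ± 1.33 CPM (log2 fold change -0.60, SE 0.22, limma adjusted p = 1.0). These genes moved the same way against the shared sham libraries with the other label, also without overlap. The log2 fold changes were 0.54 for *C4a* and -0.27 for *Csmd3* with the label TRPA1-KO, and -0.46 for *Cd55* with the label WT. Their unadjusted limma p were 0.11, 0.081 and 0.059. Against sham, an unadjusted limma p under 0.05 was found for 2 of the 43 in BCAS labelled WT (5.45% of all genes) and for 1 in BCAS labelled TRPA1-KO (2.74%), and none of the 43 had a limma adjusted p under 0.05 in any of the 3 comparisons. Groups did not overlap for 6 of the 43 between the BCAS groups, 12 for BCAS labelled WT and 8 for BCAS labelled TRPA1-KO against sham, compared with 9.21%, 19.9% and 18.6% of all genes.

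Several genes that act beside the 10 were also highest at day 7 with the label WT, and others were highest in different libraries. The proteases of the C1 complex, *C1ra* and *C1s1*, were at 10.3 and 6.14 CPM in the day 7 BCAS library labelled WT. They were at 3.21 to 7.24 and 1.41 to 3.45 CPM in the other 7. *C2*, the protease that joins C4b, was at 2.58 CPM there and at 0.334 to 1.76 CPM elsewhere. *Cd59a*, an inhibitor of the membrane attack complex, was at 5.48 and 6.14 CPM in sham, 8.80, 6.81 and 7.68 CPM with the label WT and 5.79, 4.38 and 6.76 CPM after BCAS labelled TRPA1-KO. *C1rb*, *C4a* and *Cr1l* were highest at day 10 with the label WT, at 2.52, 19.4 and 19.7 CPM, against 2.49, 13.5 and 18.8 CPM at day 7. *C1s2* was lowest at day 7 with that label, at 0.178 CPM (2 reads).

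Of the 7 terminal components, 3 were tested. *C8g*, a subunit of C8, was at 2.67 to 6.76 CPM, highest at day 7 with the label WT, and *C7* was at 1.25 to 2.03 CPM, highest in sham labelled WT. *Hc*, which encodes C5, had 13 reads at day 7 with the label WT and at most 3 in each other library, and *C6*, *C8a*, *C8b* and *C9* were below the mean of 0.1 CPM needed for testing. *Itgax*, the integrin chain of complement receptor 4, was at 0.313 and 0.192 CPM in sham, 2.31, 1.39 and 0.329 CPM with the label WT and 0.891, 0.320 and 2.08 CPM with the label TRPA1-KO. It had 4 and 2 reads in the sham libraries and 3 in each of the lowest 2 BCAS libraries, so the order of these 4 was not resolvable at this depth.

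**Figure D4:**
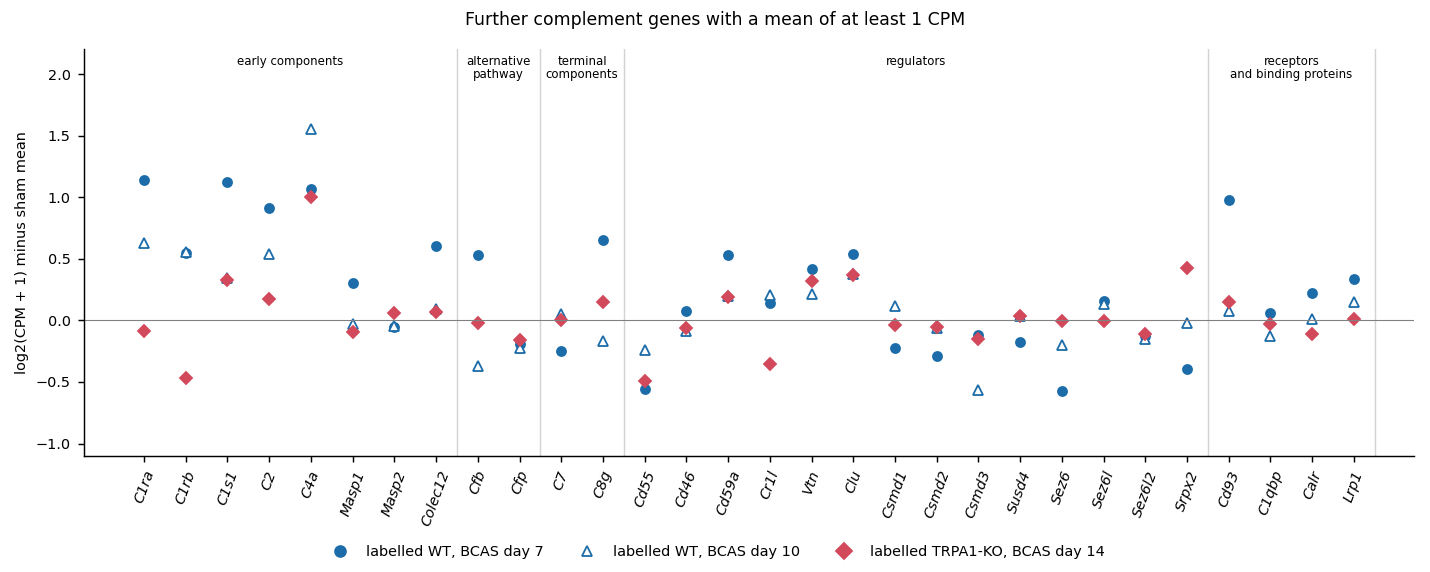
Difference from the sham mean on the log2(CPM + 1) scale for other complement genes averaging 1 CPM or more, grouped by role, in 3 BCAS libraries (1 point each). *C1ra*, *C1s1* and *C2* are highest at day 7 with the label WT, *C4a* is highest at day 10 with that label, and *Cd55* lies below 0 in all 3.

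Markers of microglia had a similar order over the libraries. Of 12 microglial markers, 11 were ordered day 7 above day 10 above day 14 with the label WT and were highest at day 14 with the label TRPA1-KO, as was the case for 8 of the 10 complement genes and 9.93% of all genes. The 12 microglial markers summed to 385 and 410 CPM in the sham libraries, 1039, 633 and 378 CPM at days 7, 10 and 14 after BCAS with the label WT, and 361, 380 and 505 CPM with the label TRPA1-KO. All 12 were above both sham libraries at day 7 with the label WT, at a median of 2.43-fold of the sham mean, from 1.33-fold (*Sall1*) to 5.55-fold (*Fcrls*). Over the 3 days, 4 of the 12 had an unadjusted limma p under 0.05 between the BCAS groups and 5 had one in the libraries labelled WT against sham, against 4.2% and 5.45% of all genes, and 0 had an adjusted p under 0.05 in either. The 6 reactive astrocyte markers, *Gfap* among them, summed to 257 and 296 CPM in sham, 2001, 1237 and 204 CPM with the label WT and 222, 216 and 518 CPM with the other label. *Gfap* itself was at 200.4 and 234 CPM in sham, 1415, 1060 and 157 CPM with the label WT and 167, 169 and 427 CPM after BCAS labelled TRPA1-KO. The part of these cells in the complement levels was not tested.

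Relative to the summed microglial markers, the complement genes were still higher at day 7 with the label WT than in sham. The ratio was 1.81-fold of its sham mean for *C1qa*, 1.76-fold for *C1qb*, 1.85-fold for *C1qc*, 1.57-fold for *Serping1*, 1.46-fold for *Itgam* and 2.86-fold for *C4b*, and it was largest for *C3* (5.79-fold) and *C3ar1* (6.83-fold). At day 14 with the label TRPA1-KO it was 1.06-fold for *C1qa*, 1.024-fold for *C1qc* and 1.98-fold for *C4b*. These are ratios of single libraries to the mean of both sham libraries, and the markers themselves can change within a cell.

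Markers of blood-borne cells that carry these receptors were low, and several were highest in the day 7 library labelled WT. *Ly6g*, which defines neutrophils, was at 0 reads in every library, and the 6 neutrophil markers summed to 0.104 to 1.16 CPM, with the highest sum at day 7 labelled WT. The 6 lymphocyte markers summed to 0 to 1.76 CPM, highest at day 10 labelled WT. The 8 markers of border and infiltrating myeloid cells summed to 5.12 to 11.4 CPM, again highest at day 7 labelled WT. In that library *Ccr2*, a monocyte receptor, was at 1.78 CPM against 0.0782 and 0.0959 CPM in sham and 0 to 0.630 CPM in the other BCAS libraries. *Ms4a7* (1.07 CPM) and *Plac8* (0.534 CPM) were also highest there, against at most 0.0959 and 0 CPM in sham. *Mrc1* (2.58 CPM, against 2.50 and 1.92 CPM in sham) and *Ly6c2* (3.38 CPM, against 2.11 and 1.055 CPM) were above sham there without being highest. *Mrc1* reached 4.99 CPM at day 14 after BCAS labelled TRPA1-KO, and *Ly6c2* 3.655 CPM at day 10 labelled WT. In the day 7 library labelled WT, *Pf4* was at 0.356 CPM, between its sham values of 0.313 and 0.384 CPM. By contrast, *Cd163* was at 1.33 CPM there against 3.44 and 3.45 CPM in sham, and *Lyve1* at 0.356 against 0.704 and 0.480 CPM. Over the 3 days with the label WT against sham, 1 of the 7 tested markers of this list had an unadjusted limma p under 0.05. That marker was lower, and the share over all genes was 5.45%. Hemoglobin RNA was at 2.49 CPM in the day 7 library labelled WT, within the range of the others. The part of blood-borne cells in the complement levels was not tested.

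**Figure D5:**
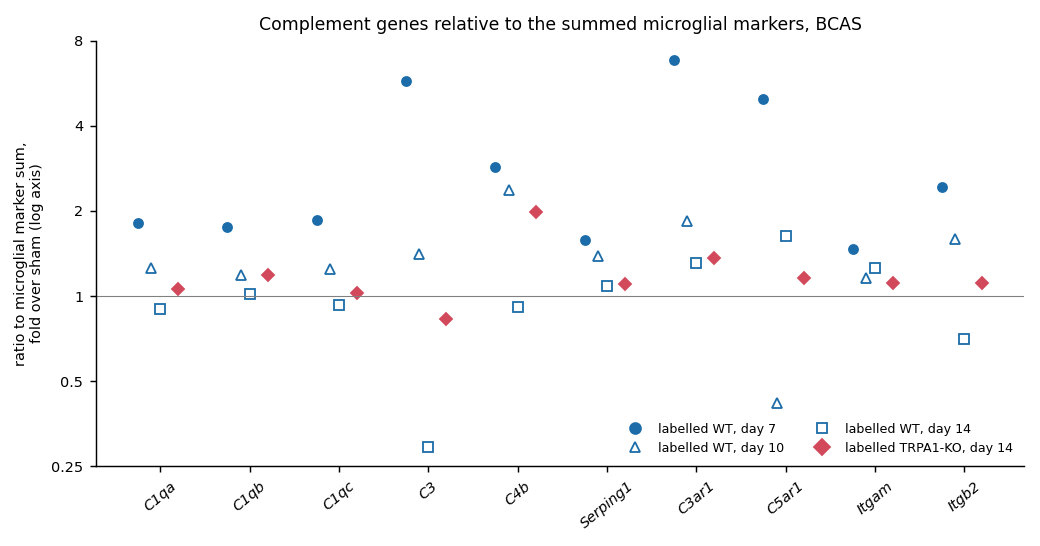
Ratio of each complement gene to the summed CPM of 12 microglial markers, as a fold over the mean ratio of both sham libraries (logarithmic axis), in 4 BCAS libraries. At day 7 with the label WT the 10 points lie between 1.46 (*Itgam*) and 6.83 (*C3ar1*), and at day 14 with the label TRPA1-KO *C4b* is the highest at 1.98.

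The genes whose profile was most like that of the complement genes were sought among 10739 genes averaging 10 CPM or more, by Pearson's r of log2(CPM + 1) over the 8 libraries, as a description. The points share the same libraries and the day 7 library labelled WT weighs heavily in each. For the mean of the 3 C1q genes they included *Grn* (r = 0.9985) and *Cyth4* (0.995), with 0.97 and 0.99 over the 6 libraries other than days 7 and 10 labelled WT. *Grn*, which encodes the lysosomal glycoprotein progranulin, was at 47.3 and 46.9 CPM in sham, 200.1, 87.1 and 43.9 CPM with the label WT and 43.1, 47.9 and 62.6 CPM with the label TRPA1-KO. For *C4b* they were *Zc3h7a* (0.99), *Ctss* (0.98) and *Plpp3* (0.98). The size of the change was far smaller for *Zc3h7a* (49.9 to 59.8 CPM) and *Plpp3* (208 to 269 CPM) than for *C4b* (29.8 to 295 CPM). *Ctss*, which encodes cathepsin S, was at 50.5 and 55.4 CPM in sham, 182, 133 and 54.0 CPM with the label WT and 46.0, 49.0 and 78.3 CPM after BCAS labelled TRPA1-KO. For *C3* they were *Pnp*, *Rplp0* and *Fcer1g* (0.99, 0.99 and 0.98), whose r fell to 0.85, 0.86 and 0.87 over the 6 libraries. *Pnp* (13.4 to 28.4 CPM) and *Rplp0* (142 to 215 CPM) changed far less in proportion than *C3* (0.214 to 11.9 CPM).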

How the data were processed

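The authors selected polyadenylated RNA and sequenced it on an Illumina instrument. Clean reads were aligned to GRCm38 by HISAT (version 2.1.0), assigned to genes by subread (version 2.0.1) and normalized by edgeR (version 3.34.1). The annotation and strand setting are not given in the sources used here. The deposited signal is reads per gene divided by effective library size and scaled to CPM, with sums that differ between libraries. Since 100% of values were whole multiples of 1 read (tolerance 0.02), reads were recovered.

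The log2(CPM + 1) values of the 18123 genes averaging 0.1 CPM or more, of 25239 in all, were fitted in limma (version 3.58.1, lmFit and eBayes with trend), two-sided, with Benjamini-Hochberg adjustment over all of them, after the fitting script was tested on simulated data. Between the BCAS groups the 6 BCAS libraries entered the fit. Against sham all 8 did, with both sham libraries as 1 group. Days served as replicates, so p-values measure the spread between days and mice together. The design had been written for values of unknown scale, and its choice for normalized values was used. Alternatives were another pseudocount (0.1), other filters (none, or a mean of 1 CPM), robust moderation, equal library medians, edgeR version 4.0.16 and DESeq2 version 1.42.0 on recovered reads, the day as a block, other sham controls and each library left out. Positions and exon lengths are from GENCODE M21 (GRCm38). Named genes are the 10 genes, *Trpa1*, fixed partners of the 10, other complement genes averaging 1 CPM or more with a limma p under 0.05, and the 3 most similar genes for each of 3 profiles. Not every gene this rule selects is reported here. The complement genes *C1rb*, *C1s2*, *C6*, *C7*, *C8a*, *C8b*, *C8g* and *C9* are named outside this rule, as are the cell type markers. The 10 genes and all lists were chosen with earlier results of these data known.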

Additional observations from a re-analysis of the deposited data

How the results depend on the processing

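Of the 10 genes, all had a log2 fold change above 0 with the label WT between the BCAS groups and against sham under every alternative run. Without the day 7 library labelled WT, *C3* and *C5ar1* were at 0.041 and 0.038 against sham, in place of 0.98 and 0.83. Against sham with the label TRPA1-KO, log2 fold changes lay near 0 and several changed sign. On recovered reads *Itgam* and *Itgb2* were at 0.013 and 0.047 with both edgeR and DESeq2, and against the own sham library *C1qc* and *C4b* were at -0.017 and -0.031. With each library left out in turn, *C1qa* lay between -0.11 and 0.18, *C1qb* between -0.10 and 0.29, *C1qc* between -0.017 and 0.26, *C3* between -0.26 and 0.18, *C4b* between -0.29 and 0.56, *Serping1* between -0.092 and 0.18, *C3ar1* between -0.15 and 0.70, *C5ar1* between -0.25 and 0.045, *Itgam* between -0.31 and 0.10, and *Itgb2* between -0.24 and 0.23.

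Between the BCAS groups, 1 of the 10 genes had an unadjusted p under 0.05. The count was 3 with a pseudocount of 0.1 or equal library medians, 0 with no filter, robust moderation or the own sham subtracted, 10 with edgeR, 4 with DESeq2, 2 with all 8 libraries, and 0 to 9 with a library left out (9 without day 14 labelled WT). Against sham with the label WT it was 3, and 6 with a pseudocount of 0.1 or equal medians, 1 with no filter or robust moderation, 10 with edgeR, 7 with DESeq2, 0 with the own sham, and 0 to 9 with a library left out. In the latter comparison it was 1 without the day 7 or day 10 library labelled TRPA1-KO, which enter the shared estimate of spread.

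Over all genes, those with an adjusted p under 0.05 between the BCAS groups numbered 3, and 1 with no filter, 5 with robust moderation, 17 with DESeq2, 0 with all 8 libraries or the own sham subtracted, and 1 to 29 with a library left out. With an unadjusted p under 0.05 there were 761, and 271 with the own sham subtracted and 325 to 1846 with a library left out. Against sham with the label WT, DESeq2 gave 24 adjusted calls in place of 0, a left out library 0 to 45, the own sham 359 unadjusted calls in place of 988, and a left out library 357 to 2013. With the label TRPA1-KO, the 1 adjusted call became 0 with no filter, equal medians or the own sham, 4 with DESeq2 and 0 to 1 with a library left out, and the 496 unadjusted calls became 254 with DESeq2 and 191 to 735. The cause of these differences was not tested.

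With the postoperative day as a replicate block between the BCAS groups, 2 of the 10 genes had an unadjusted p under 0.05 and 1 gene of all had an adjusted one. Deviations of same-day libraries from their group means correlated at -0.10, 0.01 and -0.26 over 10744 genes. Opposite day courses with the 2 labels would also give values near or below 0, so these do not decide whether the day pairs the samples. Depth limited *C3*, *C5ar1* and *Hc*, with under 15 reads in most libraries. With 1 library per label and day, day, mouse and library cannot be told apart.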
